A study of Mus musculus with 18 samples.

Results

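The glutathione and antioxidant genes Gclc, Gclm, Gpx1, Gpx4, Gsr, Txn1, Txnrd1, Prdx1 and Nfe2l2 were followed in invariant natural killer T (iNKT) cells of the mouse thymus. A gene was read from the array probe set whose only gene symbol was that gene, the brightest one where a gene had more. In this way 8 of the 9 listed genes had a level, out of 22180 genes with such a probe set on the array. All 8 passed the filter on dim signal and were tested among 13034 genes. Prdx1 was represented only by 3 probe sets that list several genes, so no level is given for it. RNA was measured on 18 microarrays, 3 for each combination of 2 genotypes and 3 developmental stages, all from C57BL/6 thymus. WT mice were compared with Mst1KO mice, which the series design gives as Cd4CreMst1fl/fl, 3 mice per genotype. The labels give no age, and do not say whether the WT animals carried the Cre transgene or the floxed allele. Cd4-driven Cre acts in every T cell that has passed through a CD4-expressing stage, so Stk4, the gene for the Hippo kinase MST1, is targeted in conventional T cells as well as in iNKT cells. All sorted cells carried TCRb, bound the CD1d tetramer loaded with PBS57 and lacked CD24. S1 cells were negative for CD44 and NK1.1, S2 cells were positive for CD44 and negative for NK1.1, and S3 cells were positive for both.

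Glutathione is a tripeptide that cells use to reduce peroxides and to keep protein thiols reduced. Its synthesis is limited by glutamate-cysteine ligase, which joins a catalytic subunit (GCLC) and a modifier subunit (GCLM). Glutathione peroxidases spend it on peroxides, glutathione reductase recycles it with NADPH, and thioredoxin with its reductase forms a parallel route that serves the peroxiredoxins. The transcription factor NRF2, encoded by Nfe2l2, drives many of these genes through antioxidant response elements in their promoters. In T cells, glutathione made through GCLC is known to be needed for growth after activation.

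Values are log2 expression per probe set as deposited, so a difference of 1 is a 2-fold change. Levels are mean ± SD (n = 3 arrays), differences are log2 difference ± SE from limma fitted over all 18 arrays, and a gene is called at a Benjamini-Hochberg adjusted p under 0.05 over all genes tested. In counts and shares of genes, those that rose, fell, were higher or were lower are the genes called in that direction. Since the labels leave unsaid whether a replicate number marks 1 mouse, each p-value reflects only how far these arrays spread, part of which may be technical. Arrays of a group correlated at 0.98 to 0.99, and array medians lay between 4.81 and 4.93. Statements on overlap between arrays are descriptions, since 3 arrays per group can separate without a true difference. How many of all genes lacked overlap in the same comparisons was not counted. Stk4 was lower on every Mst1KO array than on every WT array of its stage, with differences from -0.29 to -0.39 that did not pass the test (adjusted p = 0.0767 to 0.34 by limma). Whether its probe set reads the deleted part of Stk4 is not known here, so this is no check of the deletion. The iNKT cell regulator Zbtb16 had group means of 10.15 to 11.77 and Cd3e of 11.55 to 12.06. From S2 to S3, 2 of the 6 tested iNKT cell genes rose and 4 fell in WT (10.4% and 13.2% of all genes). In Mst1KO 1 rose and 4 fell (8.01% and 9.18% of all genes). Slamf6 went from 11.28 ± 0.11 at S2 to 8.15 ± 1.08 at S3 in WT, and from 11.22 ± 0.17 to 9.84 ± 0.51 in Mst1KO. Between genotypes 1 of the 6 was called, higher in Mst1KO at S3. All 3 genes of the sorting gate that were tested, Cd44, Klrb1c and Cd24a, rose from S2 to S3 in each genotype.

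Among the 8 genes, Gclc, Gclm and Gpx1 varied most over the groups, and Txnrd1 least. The span between the highest and the lowest group mean was 1.83 for Gclc, 1.21 for Gclm and 1.11 for Gpx1, against pooled within-group SDs of 0.20, 0.16 and 0.07. It was 0.59 for Gsr, 0.47 for Nfe2l2, 0.42 for Txn1, 0.30 for Gpx4 and 0.09 for Txnrd1, whose within-group SD was also 0.09. WT S3 was the lowest group for Gclc, Gclm, Gpx1, Gsr and Txn1, and the highest for Gpx4 and Nfe2l2. In bulk RNA, fewer cells of a kind and less RNA per cell cannot be told apart.

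**Figure D1:**
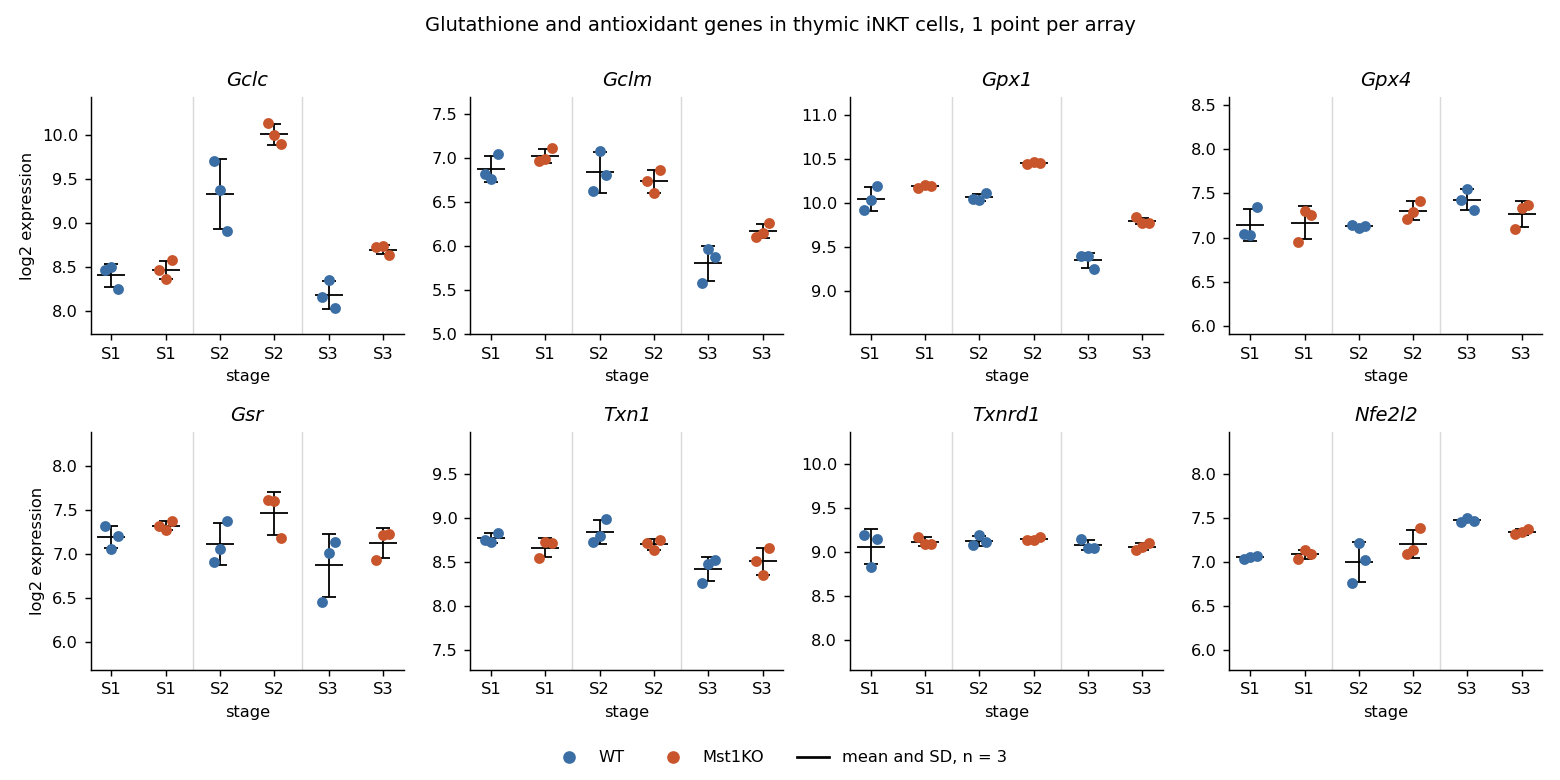
Log2 expression of the 8 measured genes by stage, with WT in blue and Mst1KO in orange; each point is 1 array, and the bars give the mean and SD of 3 arrays. All panels span the same number of log2 units around different centres. Gclc peaks at S2 in both genotypes (9.33 in WT, 10.01 in Mst1KO), Gclm and Gpx1 are lowest at S3, and Txnrd1 stays between 8.83 and 9.19 on every array.

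Gclc, the catalytic subunit of glutamate-cysteine ligase, rose from S1 to S2 and fell back from S2 to S3 in both genotypes. In WT the 3 arrays of S1 read 8.47, 8.50 and 8.26, those of S2 9.71, 9.38 and 8.91, and those of S3 8.16, 8.36 and 8.04. In Mst1KO they read 8.47, 8.37 and 8.58 at S1, 10.14, 10.00 and 9.90 at S2, then 8.73, 8.74 and 8.64 at S3. S2 arrays lay above S1 and S3 arrays without overlap in each genotype, and the WT S2 arrays were the most spread (SD 0.40). From S1 to S2 Gclc rose by 0.92 ± 0.15 in WT (1.89-fold, limma adjusted p = 0.00179) and by 1.54 ± 0.15 in Mst1KO (2.91-fold, adjusted p = 7.6e-06). Over the next step, to S3, it changed by -1.15 ± 0.15 in WT (adjusted p = 3e-05) and by -1.31 ± 0.15 in Mst1KO (adjusted p = 1.16e-05). The WT rise was no longer called when only the S1 and S2 arrays of WT entered the fit (adjusted p = 0.0624). Between S1 and S3, Gclc differed by -0.22 ± 0.15 in WT (adjusted p = 0.292) and by 0.23 ± 0.15 in Mst1KO (adjusted p = 0.306), and neither was called. In the order of its group means, Mst1KO S2, WT S2, Mst1KO S3 and Mst1KO S1 followed each other with no overlap between neighbours, whereas Mst1KO S1 overlapped WT S1 and WT S1 overlapped WT S3.

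Gclm, the modifier subunit that makes the ligase more efficient, was lowest at S3 in both genotypes. In WT it read 6.82, 6.76 and 7.04 at S1, 6.62, 7.08 and 6.81 at S2, then 5.58, 5.96 and 5.87 at S3. In Mst1KO it read 6.96, 6.99 and 7.11 at S1, 6.74, 6.60 and 6.86 at S2, then 6.10, 6.15 and 6.26 at S3. Every S3 array lay below every S1 and S2 array, whichever the genotype. The change from S2 to S3 was -1.03 ± 0.13 in WT (2.05-fold lower, limma adjusted p = 1.34e-05) and -0.56 ± 0.13 in Mst1KO (1.48-fold lower, adjusted p = 0.00528). From S1 to S2 Gclm differed by -0.04 ± 0.13 in WT and by -0.28 ± 0.13 in Mst1KO (adjusted p = 0.931 and 0.221), and neither was called. In Mst1KO the S2 arrays nonetheless lay below the S1 arrays without overlap, whereas in WT they overlapped. The S1 to S3 change was -1.07 ± 0.13 in WT and -0.85 ± 0.13 in Mst1KO, both called.

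The 2 subunits of the ligase therefore moved unequally between S1 and S2. Within an array, Gclc minus Gclm rose by 1.39 from S1 to S2 on average over the genotypes, and the arrays of S2 (2.09 to 3.40) lay above those of S1 (1.22 to 1.73). This gave p = 0.005 in a two-sided exact permutation test of arrays within genotypes, the smallest p that its 400 arrangements can give, and 0.015 after Benjamini-Hochberg adjustment over the 3 such tests made. From S2 to S3 the same difference changed by -0.43 (exact permutation p = 0.065, adjusted 0.0975), and between Mst1KO and WT by 0.29 (exact permutation p = 0.09975, adjusted 0.09975). All 3 tests used the arrays described above for Gclc and Gclm, so they add no independent support. Their adjustment does not cover the choice of this pair of genes.

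Other genes of glutathione synthesis and supply moved in both directions, and 12 of the 14 listed were tested. Oplah, which returns 5-oxoproline to glutamate, rose from S1 to S2 by 0.86 ± 0.16 in WT and 0.58 ± 0.16 in Mst1KO, and again from S2 to S3 by 0.73 ± 0.16 and 0.58 ± 0.16. Ggt7, a gamma-glutamyltransferase family gene, fell from S1 to S2 by 0.69 in WT (SE 0.14) and by 0.80 in Mst1KO (SE 0.14). Slc1a4, a carrier of neutral amino acids, fell by 0.49 (SE 0.13) in WT over the same step. Gss, the second enzyme of glutathione synthesis, was not called in any step between neighbouring stages, with differences from -0.28 to -0.02. Slc7a11, the cystine carrier subunit, was below the filter on dim signal. Over the S2 to S3 step, 2 of the 12 genes rose and 2 fell in WT, with a median of 0.02, and 2 rose and 3 fell in Mst1KO, with a median of 0.11. Over all genes tested the medians were 0.00 and -0.03. Of all genes, 10.4% rose and 13.2% fell over this step in WT, and 8.01% rose and 9.18% fell in Mst1KO. The counts of the other lists for this step are to be read against the same shares.

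Gpx1, the abundant cytosolic glutathione peroxidase, had the tightest replicates and separated most of the groups. In WT it read 9.92, 10.04 and 10.19 at S1, 10.05, 10.04 and 10.11 at S2, then 9.40, 9.40 and 9.25 at S3. In Mst1KO it read 10.17, 10.21 and 10.19 at S1, 10.44, 10.47 and 10.46 at S2, then 9.84, 9.77 and 9.78 at S3. Of the 5 neighbouring pairs in the order of its group means, only WT S2 and WT S1 overlapped. Mst1KO S1 (10.17 to 10.21) and WT S1 (9.92 to 10.19), which are not neighbours in that order, also overlapped. Between S2 and S3 Gpx1 changed by -0.72 ± 0.08 in WT (1.65-fold lower, limma adjusted p = 5.53e-06) and by -0.66 ± 0.08 in Mst1KO (1.59-fold lower, adjusted p = 2.08e-05). The S1 to S2 difference was 0.02 ± 0.08 in WT and 0.27 ± 0.08 in Mst1KO, neither called (adjusted p = 0.952 and 0.0611). From S1 to S3 it changed by -0.70 ± 0.08 in WT and by -0.40 ± 0.08 in Mst1KO, both called.

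Gpx4, the peroxidase that reduces lipid peroxides in membranes, did not follow Gpx1. In WT it read 7.04, 7.03 and 7.35 at S1, 7.14, 7.11 and 7.13 at S2, then 7.43, 7.55 and 7.31 at S3. In Mst1KO it read 6.95, 7.30 and 7.26 at S1, 7.21, 7.29 and 7.42 at S2, then 7.10, 7.34 and 7.37 at S3. WT S3 arrays lay above WT S2 arrays without overlap, but all 5 neighbouring pairs of group means overlapped. The WT difference from S2 to S3 was 0.30 ± 0.12 (adjusted p = 0.0709), and that from S1 to S3 was 0.29 ± 0.12 (adjusted p = 0.068). Neither was called.

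Gsr, the NADPH-dependent reductase that regenerates glutathione, was not called in any comparison. It read 7.32, 7.06 and 7.20 at S1, 6.91, 7.06 and 7.37 at S2, then 6.46, 7.01 and 7.14 at S3 in WT. In Mst1KO it read 7.32, 7.27 and 7.38 at S1, 7.61, 7.60 and 7.18 at S2, then 6.93, 7.22 and 7.23 at S3. Neighbouring groups overlapped throughout, and the lowest array was 1 of WT S3. The difference from S2 to S3 was -0.25 ± 0.17 in WT and -0.34 ± 0.17 in Mst1KO (adjusted p = 0.336 and 0.197), with 95% intervals of -0.602 to 0.111 and -0.692 to 0.0213.

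Beyond these genes, the glutaredoxin gene Glrx3 changed by -0.32 ± 0.10 from S2 to S3 in WT and by -0.38 ± 0.10 from S1 to S2 in Mst1KO. Of the 8 tested genes for peroxidases, the reductase and glutaredoxins, 2 fell and 0 rose from S2 to S3 in WT (median -0.24), and 1 fell in Mst1KO (median -0.21). Gpx2, Gpx3 and Gpx8 were below the filter. Among 13 tested glutathione transferases, which attach glutathione to other molecules, 1 fell from S2 to S3 in WT, Mgst2 (-0.46 ± 0.13). In Mst1KO 3 fell, Gsto1 (-0.64 ± 0.11), Mgst3 (-0.47 ± 0.12) and Mgst2 (-0.39 ± 0.13), and 1 rose, Gstp2 (0.39 ± 0.11).

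In the thioredoxin route, Txn1, the cytosolic thioredoxin, was lower at S3 in WT. Its WT arrays read 8.75, 8.73 and 8.83 at S1, 8.73, 8.79 and 8.99 at S2, then 8.26, 8.48 and 8.52 at S3. Its Mst1KO arrays read 8.54, 8.73 and 8.72 at S1, 8.72, 8.63 and 8.75 at S2, then 8.51, 8.35 and 8.66 at S3. The WT S3 arrays lay below all other WT arrays, whereas the Mst1KO S3 arrays overlapped both earlier stages. Between S2 and S3 Txn1 changed by -0.42 ± 0.10 in WT (1.33-fold lower, limma adjusted p = 0.00693) and by -0.19 ± 0.10 in Mst1KO (adjusted p = 0.225, not called). The WT call was lost in a fit on the WT S2 and S3 arrays alone (adjusted p = 0.0588). From S1 to S3 the WT change was -0.35 ± 0.10 (adjusted p = 0.0149), which was not called without WT S3 replicate 1 (-0.27, adjusted p = 0.0806) or without WT S1 replicate 3 (-0.32, adjusted p = 0.0553).

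Txnrd1, the selenoenzyme that reduces cytosolic thioredoxin, was near 9.1 in every group. Group means ran from 9.06 ± 0.20 in WT S1 to 9.14 ± 0.02 in Mst1KO S2, and all neighbouring pairs overlapped. Differences between neighbouring stages ran from -0.08 ± 0.09 to 0.07 ± 0.09, and those between genotypes from -0.01 ± 0.09 to 0.06 ± 0.09. For the S2 to S3 step in WT the 95% interval was -0.248 to 0.134, so a fall as large as that of Gpx1 or Gclm lay outside it.

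Around these 2 genes, Txnip, which binds and inhibits thioredoxin, rose from S2 to S3 by 1.20 ± 0.145 in WT (limma adjusted p = 1.09e-05) and by 0.74 ± 0.145 in Mst1KO (adjusted p = 0.00167). Txnrd2, the mitochondrial reductase, rose from S1 to S2 by 0.34 ± 0.09 in WT and 0.40 ± 0.09 in Mst1KO. Of 12 tested thioredoxin genes, 1 rose and 3 fell from S2 to S3 in WT (median -0.11), and 1 rose and 1 fell in Mst1KO (median -0.06). The peroxiredoxins, which thioredoxin serves, could be read for Prdx2, Prdx3 and Prdx4 only. In WT all 3 fell from S2 to S3, Prdx4 by 0.90 (SE 0.135), Prdx2 by 0.58 (SE 0.09) and Prdx3 by 0.52 (SE 0.15). In Mst1KO 2 of the 3 fell, Prdx4 by 0.47 (SE 0.135) and Prdx2 by 0.38 (SE 0.09), while Prdx3 differed by -0.28 ± 0.15 (adjusted p = 0.237).

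Nfe2l2, which encodes the regulator NRF2, was highest at S3. In WT it read 7.04, 7.06 and 7.07 at S1, 6.76, 7.22 and 7.03 at S2, then 7.46, 7.50 and 7.47 at S3. In Mst1KO it read 7.04, 7.14 and 7.10 at S1, 7.10, 7.14 and 7.39 at S2, then 7.32, 7.34 and 7.38 at S3. The WT S3 arrays lay above all other arrays of the series, and the Mst1KO S3 arrays overlapped Mst1KO S2. Between S2 and S3 Nfe2l2 rose by 0.47 ± 0.105 in WT (1.39-fold, limma adjusted p = 0.00329), and in Mst1KO it differed by 0.14 ± 0.105 (adjusted p = 0.428, not called). From S1 to S3 it rose by 0.42 ± 0.105 in WT (adjusted p = 0.00488) and differed by 0.25 ± 0.105 in Mst1KO (adjusted p = 0.0883, not called). The WT rise from S2 to S3 was not called in a fit on those 2 groups alone (adjusted p = 0.0518).

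The genes that govern NRF2 and compete with it were also followed, with 13 of 14 listed tested. From S2 to S3 in WT, 4 of the 13 rose and 2 fell (median 0.24, against 0.00 over all genes). Of all genes 10.4% rose and 13.2% fell. Besides Nfe2l2, those that rose were Bach2 (0.54 ± 0.13) and Bach1 (0.82 ± 0.26), repressors that bind the same element, and Sqstm1 (0.31 ± 0.08), an autophagy adaptor that binds KEAP1. Those that fell were Dpp3 (-0.48 ± 0.12), which also binds KEAP1, and Mafg (-0.33 ± 0.105), a partner of NRF2 on DNA. Keap1, which marks NRF2 for degradation, differed by 0.00 ± 0.10 over this step in WT and by -0.28 ± 0.10 in Mst1KO (adjusted p = 0.992 and 0.067). In Mst1KO 2 of the 13 rose, Bach2 (0.49 ± 0.13) and Sqstm1 (0.29 ± 0.08). Among 12 tested NRF2 target genes outside the main list, 1 rose and 3 fell from S2 to S3 in WT (median -0.13), and 0 rose and 1 fell in Mst1KO (median 0.00). The WT fall was seen in Ephx1 (-0.60 ± 0.09), Abcc4 (-0.48 ± 0.14) and Taldo1 (-0.37 ± 0.08), and the rise in Abcc1 (0.36 ± 0.11). Hmox1, Nqo1, Srxn1, Me1 and Slc7a11, well-known targets of NRF2, were below the filter on dim signal. The mRNA level of Nfe2l2 does not report the amount of NRF2 protein, which is mainly set by its degradation.

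Promoter windows from RefSeq (GRCm38.p6), 250 bases before to 50 after each gene start, were available for 7 of the 9 listed genes, in 12 windows. The core of the antioxidant response element was searched as TGACNNNGC on both strands. It was found in 4 of the 12 windows, belonging to Gclm, Nfe2l2, Txnrd1 and Prdx1, and in 12.4% of all 32851 windows of the same length. The AP-1 motif TGAGTCA, searched on both strands, was in 5.2% of all windows and among the listed genes only in that of Prdx1, where it overlaps the element. The stretches around the matches of the 3 genes with a level are shown because these genes differed in how they moved: Gclm fell to S3, Nfe2l2 rose in WT and Txnrd1 was not called. Each is written in the direction of its gene, 5′ to 3′, with the match in capitals. In Gclm and Txnrd1 the match is on the opposite strand, so the capitals show its reverse complement.
Gclm, chr3:122245408-122245446, plus strand, match 134 to 126 bases before the start that sets its window: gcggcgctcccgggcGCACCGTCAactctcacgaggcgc
Txnrd1, chr10:82859099-82859137, plus strand, match 92 to 84 bases before 1 of its starts: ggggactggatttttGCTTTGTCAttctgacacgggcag
Nfe2l2, chr2:75704880-75704913, minus strand, match 240 to 232 bases before the start: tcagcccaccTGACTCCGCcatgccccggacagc
A match describes these letters only and is not evidence of binding. Gpx1, Gpx4 and Txn1 had no match in their windows.

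The stage comparisons of the 8 genes are given beside how many of all genes were called. The 8 genes and the other lists were chosen with earlier results of these data known. A count above the share of all genes is therefore a description and no test of the group. From S1 to S2 in WT, 1 of the 8 rose (Gclc) and 0 fell, where 2.7% of all genes rose and 1.14% fell. Over the same step in Mst1KO, 1 of the 8 rose (Gclc) and 0 fell, against 3.77% and 2.9% of all genes. From S2 to S3 in WT, 1 of the 8 rose (Nfe2l2) and 4 fell (Gclc, Gclm, Gpx1 and Txn1), against 10.4% and 13.2%. In Mst1KO 3 of the 8 fell over that step (Gclc, Gclm and Gpx1) and 0 rose, against 9.18% and 8.01% of all genes. Of all calls in that comparison 46.6% were rises, and 36% after quantile normalization was repeated. Between S1 and S3, 1 of the 8 rose and 3 fell in WT, against 15.4% and 18.4%, and 0 rose and 2 fell in Mst1KO, against 12.3% and 14.4%. The median difference of the 8 genes from S2 to S3 was -0.33 in WT and -0.26 in Mst1KO, with 0.00 and -0.03 over all genes. Steps that share a stage also share its arrays, so a deviating array enters both.

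**Figure D2:**
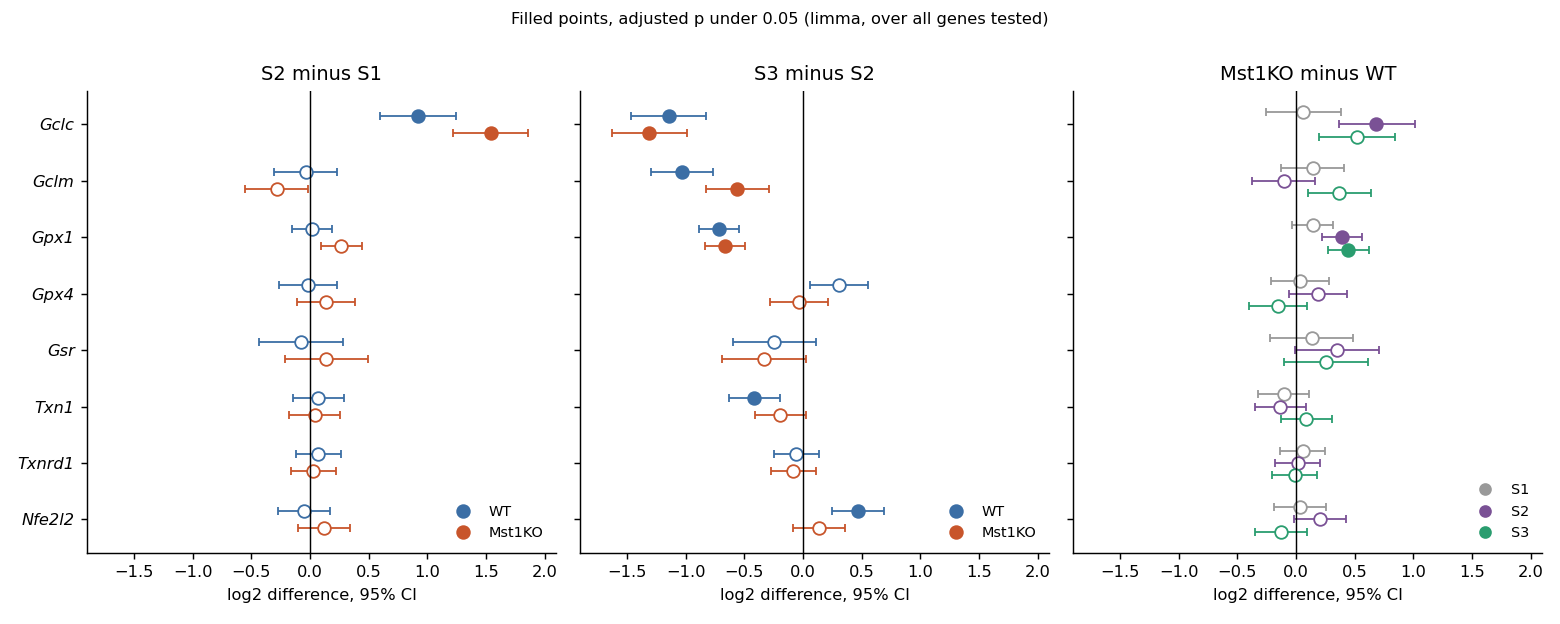
Log2 differences of the 8 genes with 95% confidence intervals from limma: S2 minus S1 and S3 minus S2 within each genotype (WT blue, Mst1KO orange), and Mst1KO minus WT at S1 (grey), S2 (purple) and S3 (green). Filled points have an adjusted p under 0.05. Gclc is the only filled point for S1 to S2 (0.92 in WT, 1.54 in Mst1KO), and Gpx1 is filled at S2 and S3 in the comparison of genotypes.

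The comparison of genotypes gives how these genes differed between Mst1KO and WT arrays at each stage. Here too the genes were chosen with earlier results of these data known, so counts beside shares of all genes are descriptions. At S1 none of the 8 was called by limma, and 0 had an unadjusted p under 0.05, where 0.261% of all genes were called higher in Mst1KO and 0.0691% lower. At S2, Gclc and Gpx1 were higher in Mst1KO and 0 of the 8 were lower, against 0.714% and 0.453% of all genes. At S3, 1 of the 8 was higher (Gpx1) and 0 were lower, against 2.35% and 1.05%. Of all calls at S3, 69.1% were higher in Mst1KO, and 57.1% after quantile normalization was repeated. On the average over stages, made from 3 values per genotype, Gpx1 was higher (0.33 ± 0.06, adjusted p = 0.0312) and 0 of the 8 were lower, against 1.47% and 0.698% of all genes.

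Gpx1 lay higher in Mst1KO on every S2 array and every S3 array, with no overlap at either stage. At S3 the difference was 0.44 ± 0.08 (1.36-fold, limma adjusted p = 0.00585) and at S2 0.39 ± 0.08 (1.31-fold, adjusted p = 0.0263). The S1 difference of 0.14 ± 0.08 was not called (adjusted p = 0.559). The S3 call was kept without any 1 array (adjusted p = 0.0136 to 0.0316) and was not made in a fit on the 2 S3 groups alone (adjusted p = 0.0685). At S2 the call was not made without any 1 of the 6 arrays (adjusted p = 0.0583 to 0.0855), and the difference then stayed between 0.38 and 0.41. The average over stages was likewise not called without any 1 replicate (adjusted p = 0.0582 to 0.118) nor with the replicate number as a block (adjusted p = 0.0706).

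Gclc showed the largest difference between genotypes of the 8 genes, at S2. The Mst1KO S2 arrays (9.90 to 10.14) lay above the WT S2 arrays (8.91 to 9.71), a difference of 0.68 ± 0.15 (1.61-fold, limma adjusted p = 0.0383). Without WT S2 replicate 1 the difference was 0.87 (adjusted p = 0.00844), and without any 1 of the other 5 arrays it was 0.47 to 0.74 and not called (adjusted p = 0.0616 to 0.131). It was also not called with no filter on dim signal (adjusted p = 0.0542), nor on the S2 groups alone (adjusted p = 0.255). At S3 the Mst1KO arrays (8.64 to 8.74) again lay above the WT arrays (8.04 to 8.36), by 0.52 ± 0.15, which was not called (adjusted p = 0.0749). At S1 the difference was 0.06 ± 0.15 and the arrays overlapped.

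Among the remaining genes, Gclm was higher in Mst1KO at S3 without overlap (6.10 to 6.26 against 5.58 to 5.96), by 0.37 ± 0.13, which was not called (adjusted p = 0.14). At S2 it differed by -0.11 ± 0.13. Gsr differed by 0.35 ± 0.17 at S2 and 0.26 ± 0.17 at S3, with overlapping arrays (adjusted p = 0.389 and 0.489). Nfe2l2 at S3 was lower on all 3 Mst1KO arrays than on any WT array, by 0.13 (SE 0.105, adjusted p = 0.593). Gpx4, Txn1 and Txnrd1 differed by -0.16 to 0.18 over the 3 stages, none called.

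Whether a stage change differed between genotypes was tested as an interaction, and limma called none of the 8 for either step. From S1 to S2, Gclc rose by 0.62 ± 0.215 more in Mst1KO than in WT (unadjusted p = 0.0105 and adjusted p = 0.543 by limma), and Gpx1 by 0.25 ± 0.12 more (unadjusted p = 0.0456, adjusted p = 0.725). Of all genes, 0.0153% were called with a more positive change in Mst1KO and 0% with a more negative one. From S2 to S3, Gclm differed by 0.47 ± 0.18 (unadjusted p = 0.0181, adjusted p = 0.307), since it fell less in Mst1KO, and Nfe2l2 by -0.34 ± 0.15 (unadjusted p = 0.0375, adjusted p = 0.402). Here 0.261% of all genes were called with a more positive and 0.107% with a more negative change in Mst1KO. Of these calls 70.8% were positive, and 60.8% after repeated quantile normalization. The genotypes are therefore not shown to differ in any of these steps, including those called in WT alone for Txn1 and Nfe2l2.

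Genes outside the list with the most similar pattern over the 18 arrays were found by Pearson correlation, given as a description only, since all arrays share the same 6 groups. For Gclc they were Il17re (r = 0.953), a subunit of the receptor for IL-17C, St3gal3 (0.949), a sialyltransferase, and Aqp3 (0.942), a channel for water and glycerol. Il17re rose from S1 to S2 by 1.90 ± 0.23 in WT and by 2.77 ± 0.23 in Mst1KO, and was higher in Mst1KO at S2 by 1.22 ± 0.23 and at S3 by 1.60 ± 0.23, all called. For Gclm they were Tcf19 (0.970), Rb1 (0.964), the retinoblastoma gene, and Aurka (0.963), a mitotic kinase. Tcf19 fell from S2 to S3 by 1.83 (SE 0.14) in WT and by 1.32 (SE 0.14) in Mst1KO. For Gpx1 they were Plin3 (0.965), a lipid droplet protein, Cpm (0.952), a membrane carboxypeptidase, and Cd163l1 (0.950), a scavenger receptor family gene found on gamma-delta T cells. All 3 were higher in Mst1KO at S3, Plin3 by 0.98 ± 0.15, Cpm by 1.81 ± 0.22 and Cd163l1 by 1.03 ± 0.12.

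**Figure D3:**
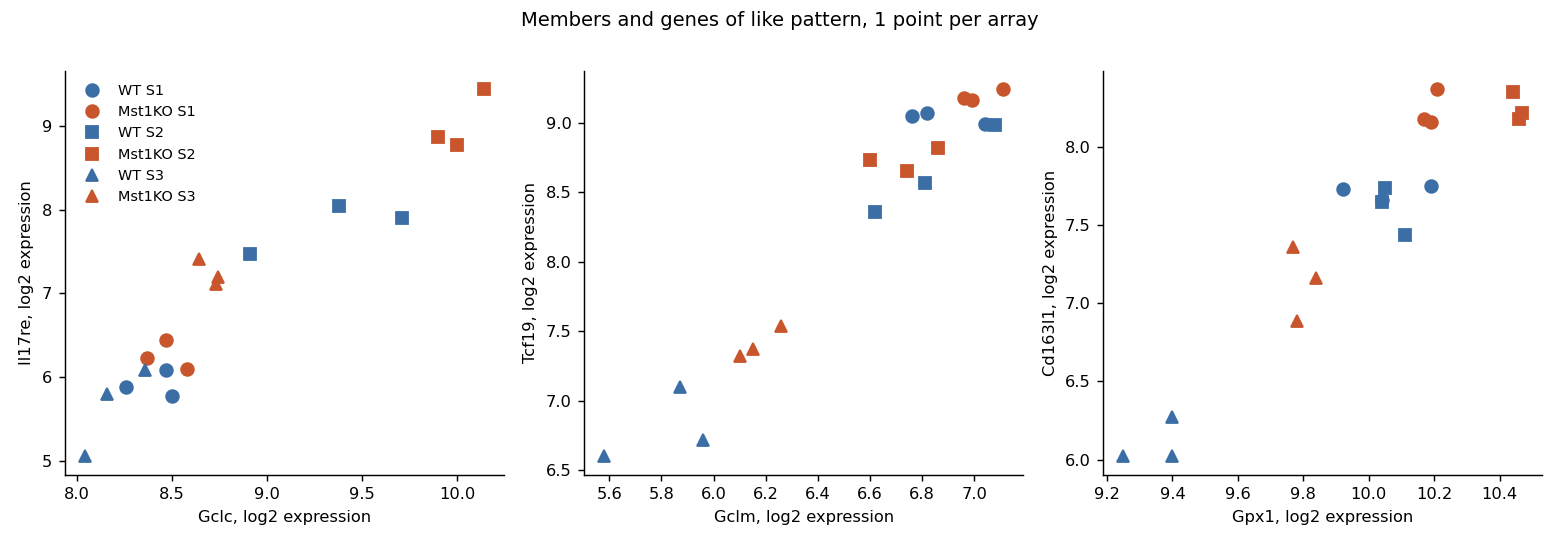
Log2 expression of Il17re against Gclc, Tcf19 against Gclm and Cd163l1 against Gpx1; each point is 1 of 18 arrays, with colour for genotype and marker shape for stage. The S2 arrays of Mst1KO are the highest for Gclc and Il17re, and the S3 arrays of both genotypes are the lowest for Gclm and Tcf19.

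The other genes had weaker neighbours. Txn1 was closest to Sub1 (0.929), Gm5848 (0.909) and Xrcc5 (0.902), Gpx4 to Bloc1s1 (0.872), Pla2g15 (0.809) and Txndc12 (0.803), and Nfe2l2 to Prxl2b (0.864), Zfp809 (0.851) and Snx18 (0.849). Gsr was closest to 5830444B04Rik (0.831), Nudt14 (0.823) and Slc25a20 (0.800), and Txnrd1 to Mbtps1 (0.761), Vipas39 (0.758) and Grap (0.737). Txnrd1, whose groups did not separate, thus had the lowest values.

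Genes listed as markers of dividing cells and of other cell types moved over the same comparisons. All 19 tested mitosis genes fell from S2 to S3 in each genotype, with medians of -2.65 in WT and -1.78 in Mst1KO, and 17 and 14 of 19 DNA replication genes fell. The mean level of the mitosis list was 8.38 to 8.84 over the WT S2 arrays and 5.75 to 6.47 over the WT S3 arrays, and 8.08 to 8.38 and 6.30 to 6.68 in Mst1KO. At S3, 3 of the 19 genes were called higher in Mst1KO and 0 lower (median 0.57), against 2.35% and 1.05% of all genes. There 17 of the 19 differences were positive and 17 had an unadjusted limma p under 0.05. At S2, 0 of the 19 were positive (median -0.33) and 4 had an unadjusted limma p under 0.05. The S2 to S3 interaction was positive for all 19 (median 0.87). Of these 0 were called and 16 had an unadjusted limma p under 0.05. From S1 to S2, where Gclc rose, 0 of the 19 mitosis genes were called by limma in either genotype (unadjusted p under 0.05 for 1 in WT and 5 in Mst1KO; medians -0.27 and -0.37), while 4 of the 19 DNA replication genes fell in WT (median -0.38) and 9 in Mst1KO (median -0.51). The part of these genes in the changes of Gclc, Gclm, Gpx1 and Txn1 was not tested.

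Of 9 macrophage or dendritic cell genes, 1 rose from S1 to S2 in WT, 6 in Mst1KO, and 4 and 5 from S2 to S3. Of all genes, 2.7% and 3.77% rose from S1 to S2, and 10.4% and 8.01% from S2 to S3. Their mean level ran from 5.43 to 5.64 on WT S1 arrays to 6.30 to 6.40 on WT S3 arrays, and from 5.49 to 5.63 to 6.52 to 6.97 in Mst1KO. Between genotypes 1 of the 9 was higher in Mst1KO at S2 (Itgax, 0.93 ± 0.18) and 1 at S3 (C1qb, 0.94 ± 0.23), against 0.714% and 2.35% of all genes. The mean level of the 9 genes was nonetheless higher in Mst1KO without overlap at S2 (6.18 to 6.27 against 5.79 to 5.89 in WT) and at S3 (6.52 to 6.97 against 6.30 to 6.40). Averaged over stages, the difference was positive for 9 of the 9, with 1 called. Of 3 tested gamma-delta T cell genes, Cd163l1 was higher in Mst1KO at S2 (0.64 ± 0.12), and Cd163l1 and Blk (2.39 ± 0.30) at S3, against 0.714% and 2.35% of all genes. Sox13 was also tested and not called at these stages. At S1 0 of the 3 were called, 1 difference was positive (median -0.28) and 2 had an unadjusted limma p under 0.05. At S2 2 of the 3 were positive, and at S3 all 3. The mean level of those 3 genes was 8.11 to 8.42 on Mst1KO S2 arrays against 7.64 to 8.03 in WT, and 7.37 to 7.55 against 5.96 to 6.47 at S3. Trdc and Tcrg-C1, also on the gamma-delta T cell list, were not read by a probe set with a single symbol. Of the B cell genes only Cd79b was tested, with Cd79a, Ms4a1, Pax5 and Ebf1 below the filter, and the erythroid genes read, Slc4a1 and Epb42, were below it too.

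Of 8 tested genes of conventional T cells, 3 fell from S1 to S2 in WT (median -0.43) and 5 in Mst1KO (median -0.84), Igfbp4 and Lef1 in both. Of all genes 1.14% and 2.9% fell over this step. Over the S2 to S3 step 3 fell in WT, and 3 fell and 1 rose in Mst1KO. Their mean level ran from 7.80 to 8.08 on WT S1 arrays to 6.72 to 6.86 on WT S3 arrays, and from 8.14 to 8.40 to 6.79 to 6.91 in Mst1KO. Between genotypes 0 of the 8 were called by limma at any stage, with an unadjusted p under 0.05 for 3 at S1, 0 at S2 and 3 at S3. At S1 6 of the 8 differences were positive (median 0.27). The mean level at S1 was nonetheless higher in Mst1KO without overlap (8.14 to 8.40 against 7.80 to 8.08 in WT). At S2 and S3 the mean levels of the genotypes overlapped. Among 5 tested genes of NK or innate lymphoid cells, 4 rose from S2 to S3 in WT (median 1.92) and 3 in Mst1KO (median 1.12). Klrb1b, an NK receptor gene, was higher in Mst1KO at S2 (1.82 ± 0.24), and at S3 Klrb1b (1.02 ± 0.24) and Tyrobp (0.88 ± 0.19), a signalling adaptor also found in macrophages. Of all genes 0.714% were called higher at S2 and 2.35% at S3. Of the 5 differences between genotypes, 4 were positive at S2 (median 0.38) but only 2 at S3 (median -0.29). The mean level of the 5 genes was 5.41 to 5.60 on Mst1KO S2 arrays against 4.86 to 5.10 in WT, and 6.69 to 6.81 against 6.64 to 6.73 at S3. Whether the sorted iNKT cells themselves or other cells gave the transcripts of these marker lists was not tested. The part of these marker genes in the stage changes of the 8 genes and in the higher Gclc and Gpx1 of Mst1KO was not tested either.

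**Figure D4:**
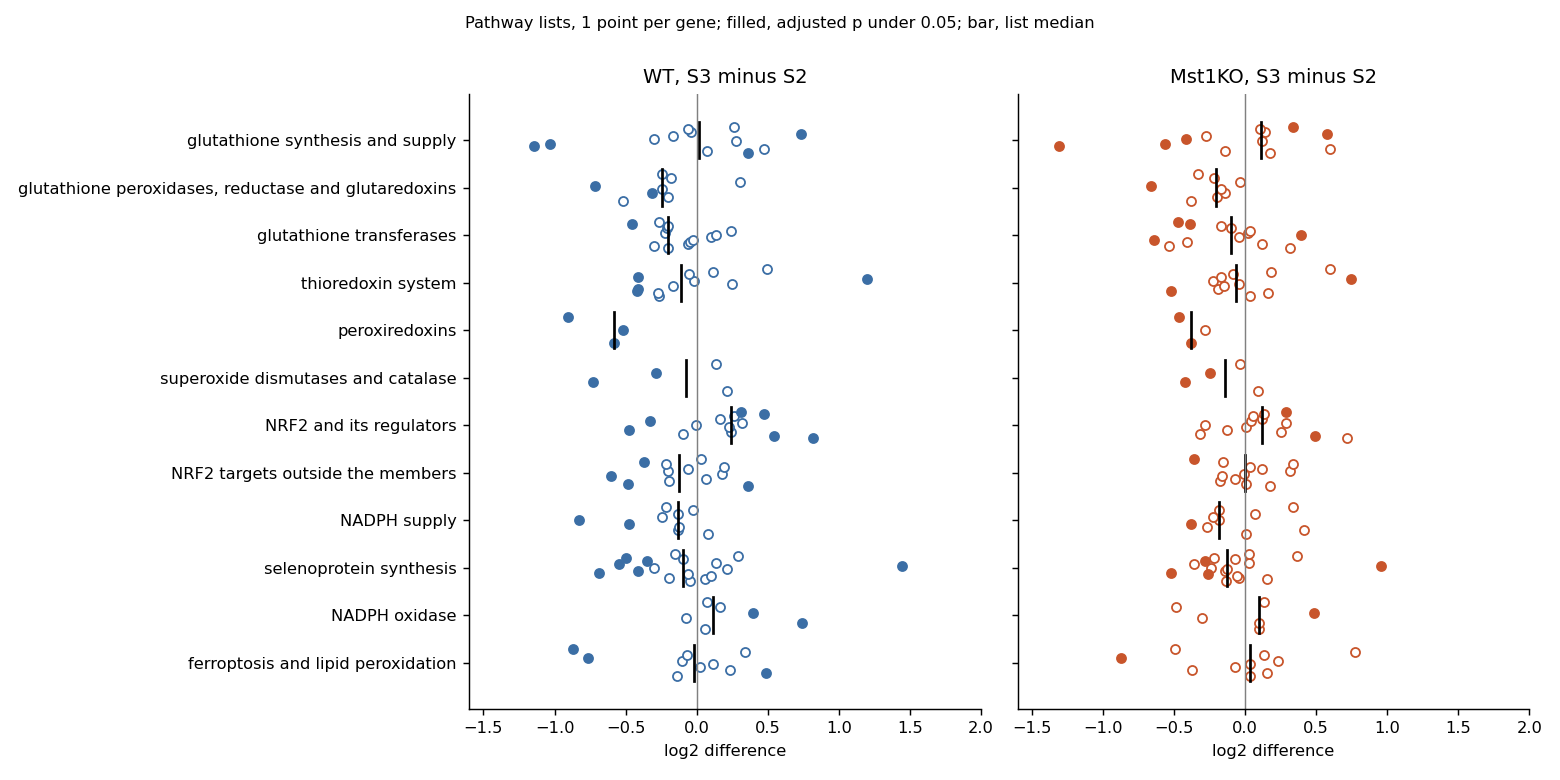
Log2 difference S3 minus S2 of each tested gene of 12 pathway lists, WT on the left and Mst1KO on the right; each point is 1 gene, filled where its adjusted p is under 0.05, and the black bar is the list median. The 3 peroxiredoxins lie at the left in WT (median -0.58), and the other WT lists have medians between -0.24 and 0.24 with single genes far to either side, such as Txnip at 1.20 and Selenon at 1.45.

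NADPH, which glutathione reductase and thioredoxin reductase consume, is supplied by enzymes of which 9 were tested. In WT 2 of the 9 fell from S2 to S3, the folate enzymes Mthfd2 (-0.83 ± 0.13) and Mthfd1 (-0.48 ± 0.13), with a median of -0.13. In Mst1KO Mthfd1 alone fell (-0.38 ± 0.13, median -0.18). Of the 4 tested genes for superoxide dismutases and catalase, Ccs, the copper chaperone of SOD1, and Sod1 itself fell in both genotypes. Ccs changed by -0.73 ± 0.13 in WT and -0.42 ± 0.13 in Mst1KO, and Sod1 by -0.29 ± 0.08 and -0.25 ± 0.08. Several calls outside the 8 genes were lost in at least 1 fit without a single array. For WT S2 against S1 these were Slc1a4 and Txnrd2, and for Mst1KO S2 against S1 Oplah and Glrx3. For WT S3 against S2 they were Abcc1, Glrx3, Mgst2, Prdx3, Bach1, Sqstm1, Dpp3, Mafg, Abcc4, Mthfd1 and Sod1. For Mst1KO S3 against S2 they were Oplah, Mgst3, Mgst2, Gstp2, Prdx4, Bach2, Sqstm1, Mthfd1, Ccs, Sod1 and Cd24a. For Mst1KO against WT they were Il17re, Itgax and Cd163l1 at S2 and C1qb, Klrb1b and Tyrobp at S3.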

How the data were processed

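The authors deposited 1 value per probe set and array on a log2 scale, for which the submitters' processing notes name RMA and Affymetrix Expression Console 1.1. This method subtracts background and sets all arrays to 1 distribution, so changes of dim genes are compressed and a shift shared by most genes is removed. The labels' protocols describe a CD8 microbead enrichment before sorting, and amplification from 1 to 20 ng of RNA. The number of arrays limits the precision.

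The file held 41345 probe sets, of which 16010 had no symbol, 1814 several and 23521 a single one. Those with a single symbol and above their array's median on at least 3 of 18 arrays were kept (13702), and the brightest stood for each of 13034 genes. R 4.3.3 with limma 3.58.1 gave the tests over all 18 arrays, with a mean per group and Benjamini-Hochberg adjustment over all genes per comparison, and the code was tested on simulated data. The average over stages used the mean of S1, S2 and S3 per genotype and replicate number.

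The members and the lists were chosen with earlier results of these data known. All members, Stk4, up to 4 called genes of lowest p per list and comparison, and the 3 nearest genes of each member were named, and other list genes with their values. Arrays of 1 replicate number in both genotypes of a stage did not deviate together (correlations -0.05 to 0.08), so the numbers were not taken as pairs between genotypes. Between stages of 1 genotype, same-numbered arrays had a median correlation of 0.06, with 3 of 18 pairs over 0.1. Arrays of other numbers had a median of -0.02, with 0 of 36 over 0.1. The main fit treats the stages as independent, although they may come from the same mice. Alternatives were no filter or 1 at the 75th percentile, array weights, averaging probe sets per gene, a 1.5-fold threshold, median centring, quantile normalization repeated, a robust fit with variance trend, fits on the compared groups only, 2 replicate blocks and leaving out each array. Figures used matplotlib 3.10.9.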

Additional observations from a re-analysis of the deposited data

How the results depend on the processing

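Of the 20 called differences of the 8 genes, 16 kept their call without each single array, and over 338 alternatives none of the 20 changed sign and 44 were not called. The other 4 were Gclc and Gpx1 for Mst1KO against WT at S2, Gpx1 on the average over stages and Txn1 from S1 to S3 in WT. The number of genes called at S2 was 2, and became 0 with no filter, on the groups compared and at the 1.5-fold threshold, 1 with array weights and 0 to 1 without single arrays. At S3 it was 1, and became 2 with the filter at the 75th percentile, the variance trend and array weights, and 0 on the groups compared and at the 1.5-fold threshold. On the average over stages it was 1, and became 2 with the variance trend, 0 at the 1.5-fold threshold and 0 to 0 without single replicates. For WT S2 against S1 it was 1, and 0 on the groups compared and at the 1.5-fold threshold. For WT S3 against S2 it was 5, and 3 on the groups compared and 2 at the 1.5-fold threshold. The 1.5-fold threshold left 1 of 4 for WT S3 against S1, 1 of 3 for Mst1KO S3 against S2 and 0 of 2 for Mst1KO S3 against S1. For Mst1KO S2 against S1 it was 1, and 2 with the filter at the 75th percentile, the variance trend and array weights. The 1.5-fold threshold asks for a larger difference by its construction, and for the other settings the cause was not tested.

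With the replicate number as a fixed block, the average over stages had 0 of the 8 genes called (replicate block adjusted p of Gpx1 = 0.0706), and Gpx4 in WT S3 against S1 reached an adjusted p of 0.05; the replicate block changed the call of no other of the 8 genes. The random replicate block within genotype had a consensus correlation of 0.037. Same-numbered arrays of 1 genotype correlated at -0.05 to 0.21 in their deviations.

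Of the 76 uncalled differences, 12 of 1374 alternatives were called, and 50 changed sign while not called (values -0.098 to 0.089, adjusted p at least 0.418). With quantile normalization repeated, these were Gpx4 (-0.018) and Nfe2l2 (-0.016) for Mst1KO against WT at S1, Gpx1 in WT S2 against S1 (-0.0026), Txnrd1 in WT S3 against S1 (-0.0041), Txn1 in the S1 to S2 interaction (0.00059), and Gpx4 (-0.0095) and Txnrd1 (-0.0012) on the average over stages. With median centring they were Txnrd1 at S3 between genotypes (0.011) and in WT S3 against S1 (-0.0058), and Gpx4 in WT S2 against S1 (0.0018). With array weights they were Gclm (0.0053) and Gpx4 (0.018) in WT S2 against S1. Without single arrays, the differences between genotypes at S1 ran from -0.034 to 0.14 for Gpx4, -0.054 to 0.12 for Txnrd1 and -0.012 to 0.11 for Gclc. At S2 they ran from -0.0088 to 0.046 for Txnrd1 and -0.22 to 0.018 for Gclm, and at S3 from -0.033 to 0.021 for Txnrd1. For WT S2 against S1 they ran from -0.048 to 0.089 for Gpx1, -0.16 to 0.072 for Gclm, -0.21 to 0.023 for Gsr, -0.16 to 0.072 for Nfe2l2, -0.041 to 0.14 for Txnrd1, -0.072 to 0.089 for Gpx4 and -0.0082 to 0.12 for Txn1. For S3 against S1 they ran from -0.098 to 0.081 for Txnrd1 in WT and -0.0069 to 0.18 for Gpx4 in Mst1KO. In Mst1KO, Txn1 ran from -0.023 to 0.073 for S2 against S1 and Gpx4 from -0.086 to 0.046 for S3 against S2. In the S1 to S2 interaction Txnrd1 ran from -0.11 to 0.069 and Txn1 from -0.092 to 0.047, and in the S2 to S3 interaction Gsr ran from -0.30 to 0.045, Txnrd1 from -0.058 to 0.0061 and Gclc from -0.35 to 0.046. On the average over stages Nfe2l2 ran from -0.012 to 0.078, Txnrd1 from -0.012 to 0.045 and Gpx4 from -0.030 to 0.099.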

Other observations

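Selenoproteins and the genes that make them, which include the machinery that Gpx1, Gpx4 and Txnrd1 need for their selenocysteine, were tested for 17 of 18 listed genes. Selenop, the secreted selenium carrier, rose from S1 to S2 by 1.18 ± 0.13 in WT (limma adjusted p = 4.48e-05) and by 1.38 ± 0.13 in Mst1KO (adjusted p = 4.15e-06), and was higher in Mst1KO at S3 by 0.63 ± 0.13 (adjusted p = 0.011). Of the 9 macrophage or dendritic cell genes, 1 rose from S1 to S2 in WT and 6 in Mst1KO. Their mean level was higher in Mst1KO at S3 (6.52 to 6.97 against 6.30 to 6.40). The part of such cells in the Selenop values was not tested. Selenon, a selenoprotein of the endoplasmic reticulum, rose from S2 to S3 by 1.45 ± 0.14 in WT and by 0.96 ± 0.14 in Mst1KO, and was lower in Mst1KO at S3, by -0.76 ± 0.14 (adjusted p = 0.00681). Sephs1 (-0.50 ± 0.10) and Selenoh (-0.69 ± 0.16) fell from S2 to S3 in WT. Over that step 1 of the 17 rose and 5 fell in WT (median -0.09), and 1 rose and 3 fell in Mst1KO (median -0.13).

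In the list on lipid peroxidation and iron, Lpcat3, which puts polyunsaturated fatty acids into phospholipids, fell from S2 to S3 by 0.77 (SE 0.10) in WT and by 0.88 (SE 0.10) in Mst1KO. It was higher in Mst1KO at S2 (0.49 ± 0.10, limma adjusted p = 0.0191) and at S3 (0.38 ± 0.10, adjusted p = 0.0379), and the calls were not made in 3 and 4 of the 6 fits without single arrays. Tfrc, the transferrin receptor, fell from S2 to S3 by 0.87 (SE 0.17) in WT, and Aifm2, a reductase that protects membranes from lipid peroxides, rose by 0.48 ± 0.15. Among 6 tested NADPH oxidase genes, which make superoxide in phagocytes, Cybb (0.74 ± 0.23) and Ncf4 (0.39 ± 0.13) rose from S2 to S3 in WT, and Ncf4 (0.49 ± 0.13) rose in Mst1KO. Cybb and Ncf4 are also high in macrophages, of whose 9 tested marker genes 4 rose over the same step in WT and 5 in Mst1KO, and the part of such cells was not tested. The WT calls of Aifm2, Cybb and Ncf4, the Mst1KO call of Ncf4 and the S3 call of Selenop between genotypes were lost in at least 1 fit without a single array.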
